A study of Mus musculus with 12 samples.

Results

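Collagen chains are hydroxylated on prolines and lysines in the endoplasmic reticulum before they are secreted and cross-linked, and the genes described here encode enzymes of those steps with their partners. They were taken as a list of 9 gene symbols among the 37477 rows of the deposited expression table: the lysyl hydroxylases Plod1, Plod2 and Plod3, the prolyl 4-hydroxylase subunits P4ha1, P4ha2 and P4hb, the collagen chaperone Serpinh1, and the lysyl oxidases Lox and Loxl2. All 9 had a row. Plod2, P4ha1, P4hb and Serpinh1 reached 10 normalized counts in at least 3 of the 12 libraries and were tested. Plod1, Plod3, P4ha2 and Loxl2 were measured at lower levels, and Lox was listed at 0 in every library.

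The study sequenced RNA of CCE cells, an established mouse embryonic stem cell line grown in serum with LIF, a cytokine that keeps such cells from differentiating. Every library came from cells that had received a pLKO.1-puro lentivirus with a short hairpin RNA and had been kept in puromycin. The 4 groups of 3 libraries were a control hairpin at day 2 after transduction and a hairpin against the long noncoding RNA TUNA (gene symbol Tunar) at day 2, day 4 and day 6. The control was taken at day 2 alone, so at days 4 and 6 the hairpin and the days in culture cannot be told apart. A single cell line was used, and since nothing says that replicates were separate cultures, p-values measure the spread between libraries, which may be technical.

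Lysyl and prolyl hydroxylases are dioxygenases: each turnover consumes molecular oxygen and 2-oxoglutarate and needs iron, with ascorbate keeping the iron reduced. Hydroxyproline makes the collagen triple helix stable at body temperature, and hydroxylysine carries sugars and forms the strong cross-links of the matrix. The prolyl 4-hydroxylase is a tetramer in which P4ha1 or P4ha2 supplies the catalytic subunits and P4hb, protein disulfide isomerase, supplies the others. Serpinh1, also called Hsp47, binds folded procollagen in the endoplasmic reticulum, and the copper enzymes Lox and Loxl2 use oxygen outside the cell to start cross-linking. The members include textbook targets of HIF, with P4ha1, P4ha2 and Plod2 among them. HIF is the transcription factor that is degraded once its own prolines are hydroxylated and so builds up when oxygen is low. The core of the DNA element that HIF binds reads ACGTG or GCGTG, and the first form is marked in the sequences shown here.

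The promoter windows of 4 genes are shown because P4ha1 rose in these data, P4ha2 was highest at the same day, and P4hb and Serpinh1 did not pass the test, while all 4 windows hold ACGTG once. Each is the 250 bases upstream of the gene's start on the gene's own strand, 5′ to 3′, from RefSeq on build GRCm38.p6, in lower case with the match in capitals. A match on the other strand reads CACGT.
P4ha1: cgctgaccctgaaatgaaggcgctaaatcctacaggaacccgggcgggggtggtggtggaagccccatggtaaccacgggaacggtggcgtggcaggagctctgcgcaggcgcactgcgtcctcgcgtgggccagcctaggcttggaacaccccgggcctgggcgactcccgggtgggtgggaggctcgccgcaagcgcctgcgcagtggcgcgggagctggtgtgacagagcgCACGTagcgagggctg
P4ha2: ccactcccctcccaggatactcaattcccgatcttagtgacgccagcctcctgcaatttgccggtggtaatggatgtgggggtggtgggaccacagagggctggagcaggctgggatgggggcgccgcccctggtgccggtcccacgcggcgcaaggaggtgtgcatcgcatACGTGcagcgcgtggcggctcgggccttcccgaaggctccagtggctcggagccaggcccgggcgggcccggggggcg
P4hb: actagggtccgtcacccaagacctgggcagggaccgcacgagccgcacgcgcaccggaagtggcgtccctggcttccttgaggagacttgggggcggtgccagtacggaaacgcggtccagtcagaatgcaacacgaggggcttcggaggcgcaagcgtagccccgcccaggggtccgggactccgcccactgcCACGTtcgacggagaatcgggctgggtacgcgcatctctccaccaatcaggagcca
Serpinh1: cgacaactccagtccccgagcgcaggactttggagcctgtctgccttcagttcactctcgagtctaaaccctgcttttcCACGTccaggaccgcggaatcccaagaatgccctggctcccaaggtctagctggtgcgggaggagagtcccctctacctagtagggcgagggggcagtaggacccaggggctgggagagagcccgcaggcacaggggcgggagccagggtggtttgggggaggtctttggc
The windows lie at chr10:59323046-59323295 on the plus strand for P4ha1, chr11:54100674-54100923 on the plus strand for P4ha2, chr11:120573254-120573503 on the minus strand for P4hb and chr7:99353240-99353489 on the minus strand for Serpinh1. The match lies 16 bases upstream of the start of P4ha1, 78 upstream of P4ha2, 56 upstream of P4hb and 171 upstream of Serpinh1. The table held 6 of the 9 genes. Plod3 has a match 54 bases upstream of its start and Plod1 has none; Plod2, Lox and Loxl2 had no entry. ACGTG on either strand occurs in 16.6% of the 32851 windows of that length in the table. GCGTG, or CACGC on the other strand, occurs 2 times each in the windows of P4ha1 and P4ha2, 3 times in that of Plod3, once in those of P4hb and Plod1 and not in that of Serpinh1, and is held by 28.2% of all windows. The matches are a description of the sequence and not a measured binding site.

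Values below are normalized counts, scaled by the authors and raised back from their deposited log2 values, and a value listed at 0 stands for 1 normalized count or less. A log2 change is on the log2(normalized count + 1) scale from limma, with its standard error, and adjusted p is Benjamini-Hochberg over all 8739 tested rows with a threshold of 0.05. Depth was 936421 to 2024777 recovered reads per library outside 3 rows (Rnu3a, Tex14 and LOC100503663) that held 60.4% to 76.9% of all reads. The row of the targeted RNA, under its older symbol 2810011L19Rik, was listed at 0 in 12 of 12 libraries, so the knockdown cannot be checked here. Of 16 embryonic stem cell markers 14 were tested and none was at 0 throughout a group. Their summed level ranged over 3932 to 4074 in the control, and with the TUNA hairpin over 3453 to 3666 (day 2), 3257 to 3464 (day 4) and 2504 to 2864 (day 6). Of 15 fibroblast markers, 8 (Col1a1, Col1a2, Col3a1, Dcn, Lum, Postn, S100a4 and Fap) were at 0 in every library, and the summed level ranged over 106 to 167 (control), 105 to 149 (day 2), 179 to 201 (day 4) and 399 to 411 (day 6). Of 18 endoderm markers, 3 (Afp, Ttr and Apoa1) were at 0 in every library, and the summed level ranged over 459 to 497 (control), 429 to 455 (day 2), 361 to 427 (day 4) and 441 to 507 (day 6). At day 4 against the control 3 of the 14 tested stem cell markers were lower, 1 of 8 tested endoderm markers was higher and 2 were lower. At day 6 against the control 6 of the 14 stem cell markers were lower (3 without control replicate 2). Among the endoderm markers 2 were higher and 1 was lower (1 call in all without day 6 replicate 2). Of all tested rows, 6.99% were higher and 7.76% lower at day 4, and 3.07% and 3.15% at day 6. The fibroblast markers that were high at day 6 are genes of contractile cells. Tagln had 6.76, 7.55 and 4.41 normalized counts in the control against 146, 158 and 144 at day 6 (limma adjusted p 3.3e-06), and Acta2, which passed the filter only through day 6, had 0, 0 and 1.10 against 151, 171 and 98.5. At day 4 Acta2 had 9.61, 3.24 and 3.59 and Tagln 13.0, 22.8 and 12.1. Because of how Acta2 passed the filter, its tests are not used. Tagln passed at day 4 against the control (limma adjusted p 0.0354). Without Acta2, 1 of 3 tested fibroblast markers was higher and 0 lower against the control, at day 4 and at day 6 alike. The main-fit calls of Acta2 and Tagln at day 4 ended under 8 and 7 of 13 alternatives. Among these were no filter, limma-voom, only the 2 groups and control replicate 1 or 2 or day 4 replicate 2 left out. The part of these levels in the results below was not tested. In bulk RNA, fewer cells of a type and less RNA per cell cannot be told apart.

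Plod2 and P4ha1 were the members that changed. Both were highest at day 4, in every library, and lower again at day 6. At day 6 Plod2 was still above the control, and P4ha1 did not pass against it. P4hb and Serpinh1, which act on the same collagen chains, passed the test in no comparison. Of the 4 tested members, 0 passed at day 2 against the control (0.961% of all tested rows passed in either direction, and 1072 rows had an unadjusted p under 0.05). At day 4 against the control 2 were higher, where 6.99% of all rows were higher and 7.76% lower. At day 6 against the control 1 was higher, where 3.07% of all rows were higher and 3.15% lower. Day 4 against day 2 gave 2 higher (all rows: 3.27% higher, 4.38% lower) and day 6 against day 4 gave 2 lower (all rows: 2.64% higher, 2.94% lower). Day 6 against day 2, added after the values were seen, gave 0 (4.5% of all rows in either direction, and 1659 rows with an unadjusted p under 0.05). The 3 comparisons against the control share its libraries, and those between days share libraries too, so the counts are not independent of each other.

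**Figure D1:**
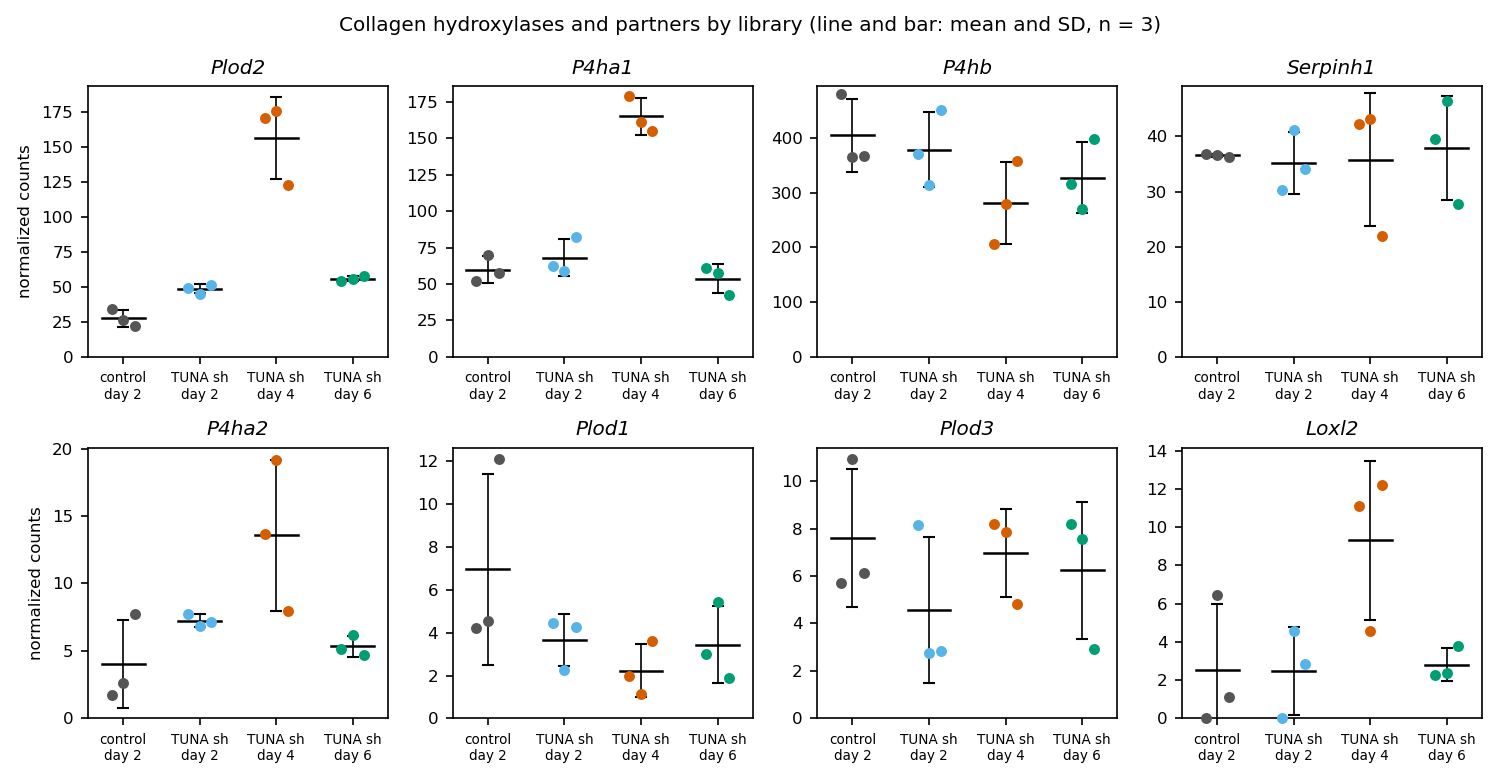
Normalized counts (vertical axes, linear, from 0) of the 8 members listed above 0 in any library, by group, with 1 point per library and the mean and SD of 3 libraries as line and bar. Plod2 and P4ha1 stand above all other groups at day 4, at 123 to 176 and 155 to 179, while P4hb and Serpinh1 spread widely within groups.

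Among the lysyl hydroxylases, Plod2 modifies the telopeptides of collagen, the ends at which cross-links form. Its level was 34.0, 26.4 and 22.2 normalized counts in the 3 control libraries and 49.5, 44.9 and 51.3 with the TUNA hairpin at day 2. At day 4 it was 170.5, 176 and 123, and at day 6 it was 54.3, 55.8 and 57.7. No library of one group overlapped another group: the control was lowest, days 2 and 6 lay close together in the middle, and day 4 was highest, with replicate 3 of that day below the other two. Non-overlap of this kind in the higher direction held for 9.76% of all rows at day 2, 15.5% at day 4 and 11.2% at day 6 against the control, 14.2% for day 4 against day 2 and 11.2% for day 6 against day 2. In the lower direction it held for 11.8% for day 6 against day 4.

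Group means of Plod2 were 27.5 ± 6.02 (control), 48.6 ± 3.27 (day 2), 156 ± 29.2 (day 4) and 55.9 ± 1.74 (day 6; SD, n = 3). At day 4 Plod2 was 5.68-fold above the control, a log2 change of 2.47 ± 0.20 (limma adjusted p 1.46e-06), and 3.22-fold above day 2 (1.65 ± 0.20, adjusted p 7.86e-05). From day 4 to day 6 it fell by 1.45 on the log2 scale (limma adjusted p 0.000254). At day 6 it was still 2.03-fold above the control (1.02 ± 0.20, limma adjusted p 0.00415). The time-matched day 2 difference of 1.77-fold did not pass (0.82 ± 0.20, limma adjusted p 0.0561, 95% interval 0.40 to 1.23). It passed when the first control library, the highest of the 3, was left out (limma adjusted p 0.0497). Day 6 and day 2 were not told apart by the limma test (0.20, adjusted p 0.614, interval -0.21 to 0.61).

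Plod1, which hydroxylates lysines within the helix, had 4.24, 4.54 and 12.1 normalized counts in the control, 4.43, 2.27 and 4.29 at day 2, 1.95, 1.14 and 3.59 at day 4 and 3.0, 5.43 and 1.90 at day 6. All 3 day 4 libraries lay below all 3 control libraries, as they did in 16.9% of all tested rows, and the day 4 values stand on few reads (3, 1 and 2.94). Without the filter on low rows, which brings 15783 rows into the fit, the log2 change at day 4 was -1.24 ± 0.56 and did not pass (limma adjusted p 0.206). Plod3, which also adds sugars to hydroxylysine, had 5.72, 10.9 and 6.12 in the control, 8.14, 2.75 and 2.82 at day 2, 8.19, 7.88 and 4.83 at day 4 and 8.21, 7.58 and 2.92 at day 6. Its groups overlapped throughout, and its unfiltered change at day 4 was -0.09 ± 0.52 (limma adjusted p 0.985). Exons of Plod3 overlap those of Znhit1 on the other strand (mean 3.04 normalized counts), and exons of Plod2 overlap the unclassified transcript Gm38391. The sources used here do not say whether the counting used strand, so reads of such pairs cannot be told apart.

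Per kilobase of exon, Plod2 was the most abundant lysyl hydroxylase in every library. It made up 53.3% to 75.9% of the summed per-length level of the 3 genes in the control, with 78.2% to 89.2% at day 2, then 93.1% to 94.6% at day 4, and 79.7% to 91.7% at day 6. The Plod1 share was 9.72% to 29.97% in the control and 0.631% to 2.80% at day 4. The Plod3 share went from 14.4% to 28.5% in the control to 4.14% to 5.10% at day 4. The shares are a description, since a rise of Plod2 alone lowers the other two.

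P4ha1, the main catalytic subunit of the prolyl 4-hydroxylase, had 51.8, 70.1 and 57.5 normalized counts in the control libraries and 62.5, 58.9 and 82.4 with the TUNA hairpin at day 2. It had 179, 161 and 155 at day 4 and 61.0, 57.4 and 42.4 at day 6. The day 4 libraries lay above all 9 others, whose groups overlapped each other. Of all tested rows, 15.5% had day 4 above the control without overlap, 14.2% above day 2 and 11.8% above day 6. The means were 59.8 ± 9.39, 67.9 ± 12.7, 165 ± 12.5 and 53.6 ± 9.89 (SD, n = 3). P4ha1 was 2.76-fold above the control at day 4 (log2 change 1.46 ± 0.19, limma adjusted p 0.000107) and 2.43-fold above day 2 (1.28 ± 0.19, adjusted p 0.000555). From day 4 to day 6 it fell by 1.62 on the log2 scale, 3.08-fold (limma adjusted p 6.25e-05). At day 2 the difference from the control was 0.18 (95% interval -0.23 to 0.58, limma adjusted p 0.781) and at day 6 it was -0.16 (-0.56 to 0.24, adjusted p 0.718), so neither interval holds a change as large as that of day 4.

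P4ha2, the second catalytic isoform, had 1.73, 2.63 and 7.72 normalized counts in the control, 7.75, 6.81 and 7.12 at day 2, 13.6, 19.1 and 7.93 at day 4 and 5.13, 6.19 and 4.71 at day 6. The day 4 libraries lay above all others, though the third day 4 library exceeded the highest library of the other groups by little. Among tested rows day 4 lay above the control in this way in 15.5% and above day 2 in 14.2%. Those shares do not cover rows below the filter such as P4ha2. The day 4 values stand on 20.9, 16.8 and 6.49 reads. P4ha2 missed the filter, and in the unfiltered fit its log2 change at day 4 was 1.64 ± 0.50, at the threshold (limma adjusted p 0.0498). In that fit it did not pass at day 2 (0.90, limma adjusted p 0.628), at day 6 (0.52, 0.701), for day 4 against day 2 (0.75, 0.488) or for day 6 against day 4 (-1.13, 0.267). Per kilobase of exon, P4ha1 made up 80.9% to 94.5% of the 2 isoforms in the control and 82.8% to 91.7% at day 4, ranges that overlap.

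P4hb, the disulfide isomerase that serves as the noncatalytic subunit, had 481, 366 and 367 normalized counts in the control libraries and 371, 314 and 451 at day 2. It had 206, 279.7 and 357 at day 4 and 315, 269.6 and 398 at day 6. The 3 day 4 libraries were lower than the 3 control libraries, the third only just, as for Plod1 and in 16.9% of all tested rows. All other pairs of groups overlapped. The means were 405 ± 66.3, 379 ± 68.96, 281 ± 75.6 and 328 ± 65.2 (SD, n = 3). The log2 change at day 4 was -0.55 ± 0.20 and did not pass (limma adjusted p 0.0772, 95% interval -0.97 to -0.12), but without the third day 4 library it was -0.74 and passed (adjusted p 0.020). The other comparisons of P4hb had limma adjusted p of 0.904 for day 2 and 0.44 for day 6 against the control, 0.187 for day 4 against day 2 and 0.547 for day 6 against day 4.

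Serpinh1, the procollagen chaperone, had 36.9, 36.6 and 36.3 normalized counts in the control, 30.2, 41.3 and 34.1 at day 2, 42.3, 43.2 and 21.9 at day 4 and 39.5, 46.5 and 27.7 at day 6. Its groups overlapped in every comparison. The third libraries of days 4 and 6 were the lowest for Serpinh1 and the highest for P4hb at their day. The means were 36.6 ± 0.282, 35.2 ± 5.60, 35.8 ± 12.1 and 37.9 ± 9.50 (SD, n = 3). The log2 change at day 4 was -0.09 with a 95% interval of -0.65 to 0.46 (limma adjusted p 0.853), whose upper end lies below the log2 change of 1.46 of P4ha1.

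**Figure D2:**
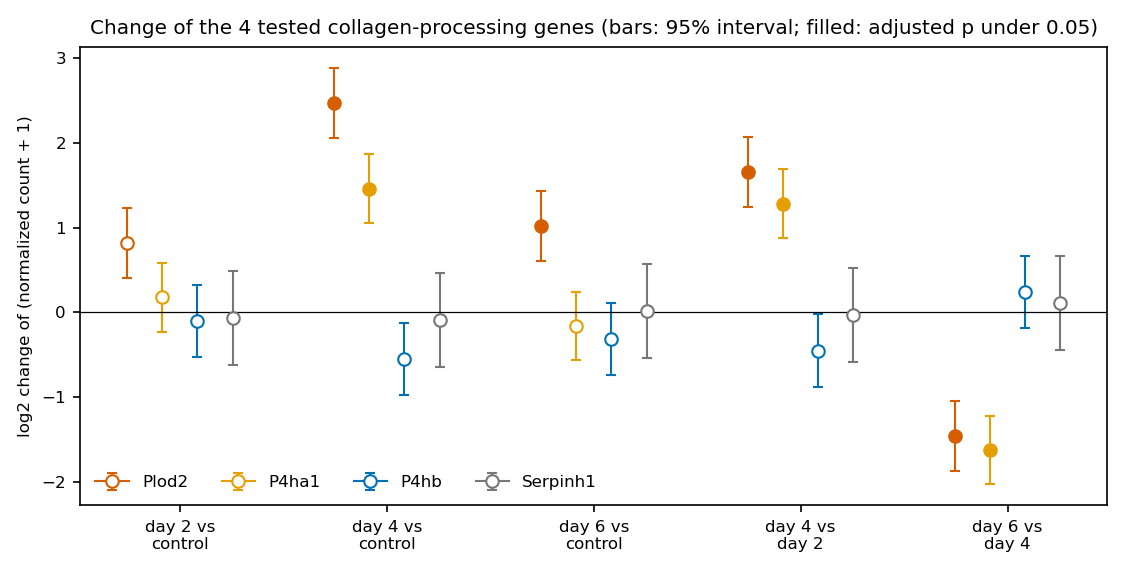
Log2 changes (vertical axis) of the 4 tested members in the 5 comparisons, with 95% intervals from limma as bars and filled points for adjusted p under 0.05. Filled points belong to Plod2 and P4ha1 alone: 2.47 and 1.46 at day 4 against the control, 1.02 for Plod2 at day 6, 1.65 and 1.28 for day 4 against day 2, and -1.45 and -1.62 for day 6 against day 4.

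The lysyl oxidases, which act on secreted collagen, were at or near the lower end of the table. Lox was listed at 0 in all 12 libraries, and no fold is given. Loxl2 had 0, 6.44 and 1.10 normalized counts in the control, 0, 4.54 and 2.85 at day 2, 11.1, 4.56 and 12.2 at day 4 and 2.25, 2.35 and 3.79 at day 6. The first and the third day 4 libraries were the highest of the 12, while the second lay within the control range. The day 4 values stand on 17.1, 4 and 10 reads. In the unfiltered fit Loxl2 did not pass at day 4 against the control (1.94 ± 0.74, limma adjusted p 0.123) or against day 2 (1.79 ± 0.74, adjusted p 0.213). Exons of Loxl2 overlap the antisense transcript Gm27177 and the microRNA Mir6950, so its reads carry the same limit as those of Plod3.

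Set against each other per kilobase of exon, the members kept a wide range of levels. In the control P4hb stood at 141 ± 23.2 normalized counts per kilobase. Serpinh1 at 15.0 ± 0.115 and P4ha1 at 14.5 ± 2.28 did not differ beyond their spread, and Plod2 followed at 7.41 ± 1.62. Plod3 at 2.32 ± 0.887, Plod1 at 1.93 ± 1.23 and P4ha2 at 1.72 ± 1.38 did not differ beyond their spread, and Loxl2 was lowest of those above 0 at 0.465 ± 0.637. At day 4 the order was P4hb at 98.3 ± 26.4, then Plod2 at 42.1 ± 7.86 and P4ha1 at 40.1 ± 3.05, which did not differ beyond their spread, then Serpinh1 at 14.6 ± 4.94 and P4ha2 at 5.80 ± 2.39 (SD, n = 3). P4hb also works outside the hydroxylase, as a free isomerase.

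The ratio of P4ha1 to P4hb within a library sets the catalytic against the noncatalytic subunit. On the log2 scale, with the pseudocount of 1 added to both, it was -3.19, -2.37 and -2.66 in the control, -2.55, -2.40 and -2.44 at day 2, -0.20, -0.79 and -1.20 at day 4 and -2.35, -2.21 and -3.20 at day 6. The day 4 libraries lay above all others. The mean difference of day 4 from the control was 2.01 on the log2 scale, and the two-sided exact permutation test gave p = 0.1, the smallest that 3 against 3 libraries allow (0.15 adjusted over 6 such tests). Day 6 minus day 4 was -1.86 (exact permutation p = 0.1), and day 6 minus the control was 0.15 (p = 0.6 by the same exact test).

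Plod2 relative to P4ha1 took another course. The log2 ratio was -0.59, -1.38 and -1.34 in the control, -0.33, -0.38 and -0.67 at day 2, -0.07, 0.12 and -0.33 at day 4 and -0.17, -0.04 and 0.44 at day 6. Day 4 and day 6 both lay above the control without overlap, by 1.01 and 1.18 on the log2 scale (exact permutation p = 0.1 each), and overlapped each other (difference 0.17, exact permutation p = 0.5, 0.60 adjusted over the 6 tests). The 2 ratios were chosen after the values were seen. The adjustment over 6 tests does not cover that choice, so the p-values of both ratios are a description.

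**Figure D3:**
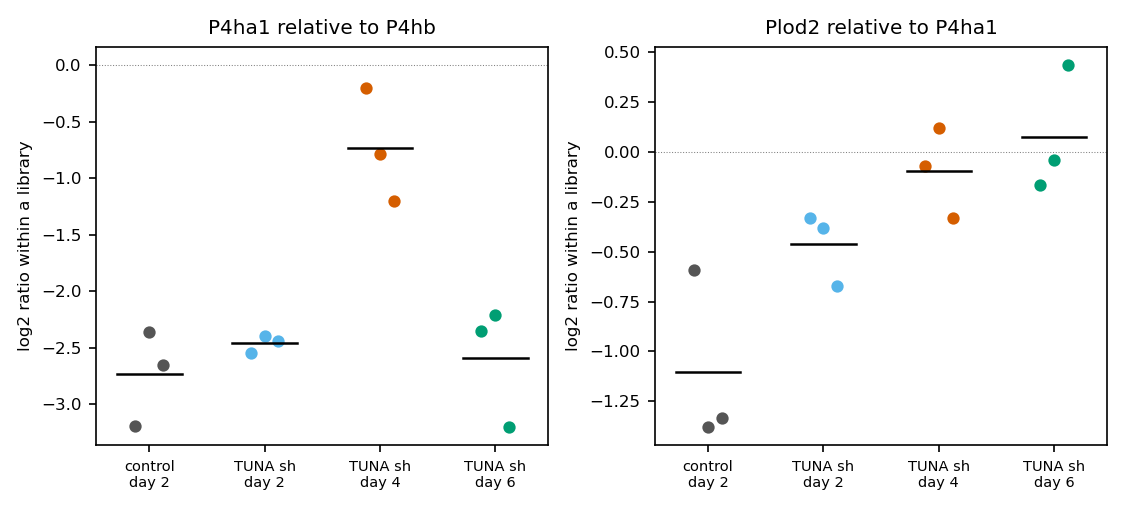
Log2 ratios within each library (vertical axes), P4ha1 over P4hb on the left and Plod2 over P4ha1 on the right, with 1 point per library and the group mean as a line. P4ha1 over P4hb stands at -1.20 to -0.20 at day 4 and at -2.21 or lower in all other libraries, while Plod2 over P4ha1 at day 6 stays above every control library.

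Across the 12 libraries, Plod2 and P4ha1 had a Pearson r of 0.826. Other tested rows were closer to each: P4ha1 ranked 106 by likeness to Plod2, and Plod2 ranked 78 by likeness to P4ha1. Plod2 and P4hb had r = -0.613, P4ha1 and P4hb -0.547, and Serpinh1 had -0.027 with Plod2. Among the tested rows the levels most like Plod2 were those of Ube2b, a ubiquitin-conjugating enzyme (r = 0.94), Pmaip1, the apoptosis gene Noxa (0.938), and Klhl24 (0.934). Most like P4ha1 were Slc25a36, a mitochondrial nucleotide carrier (0.963), Ccng2, cyclin G2 (0.957), and Zyg11b (0.944). These values describe 12 points that fall into 4 groups and share the libraries and their scaling.

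The other tested genes of collagen processing did not pass the test at day 4 against the control. Of 28 further genes for collagen modification, folding, export and trimming, 27 were in the table and 11 were tested. At day 4 against the control 0 of the 11 were higher and 0 lower (all rows: 6.99% higher, 7.76% lower). Their median log2 change was -0.18 beside -0.01 for all rows. The prolyl 3-hydroxylase Lepre1 had 8.74 ± 2.69 against 17.9 ± 6.32 normalized counts (SD, n = 3; log2 change -0.94, limma adjusted p 0.0992). The secretory kinase Fam20c had 1.44 ± 0.448 against 6.03 ± 3.06, and the procollagen trimming enhancers Pcolce2 (-1.24, limma adjusted p 0.137) and Pcolce (-0.57, 0.161) did not pass. Without the first day 4 library Pcolce2 passed (-1.80, limma adjusted p 0.044). Fam20c reached the filter only through the day 2 libraries, at 11.2, 10.2 and 11.4, so its tests are not used; without it the list had 10 tested genes, of which 0 passed, and a median of -0.11.

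The collagen chains on which these enzymes act were mostly below the filter. Of 35 genes for collagen chains and elastin, 12 (the elastin gene Eln among them) were listed at 0 in every library and 2 were tested. Col18a1, a basement membrane collagen, averaged 63.6 ± 0.973 normalized counts (control), 83.1 ± 7.36 (day 2), 70.0 ± 9.23 (day 4) and 68.6 ± 7.27 (day 6; SD, n = 3). Col4a1, a chain of the basement membrane network, had 17.2 ± 1.52, 24.1 ± 3.57, 22.7 ± 5.80 and 17.6 ± 2.04. At day 4 against the control their log2 changes were 0.13 (limma adjusted p 0.653) and 0.35 (0.381).

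Genes for disulfide formation and folding in the endoplasmic reticulum, the company of P4hb, had calls in both directions at day 4. Of 26 genes 22 were tested, and 2 were higher and 4 lower than the control (all rows: 6.99% higher, 7.76% lower). Their median log2 change was 0.02. Ero1l, the oxidase that passes electrons from disulfide isomerase to oxygen, rose from 64.9 ± 5.59 to 139 ± 10.8 normalized counts (1.09 ± 0.20, limma adjusted p 0.00132) and fell by 1.34 on the log2 scale from day 4 to day 6 (limma adjusted p 0.000543). The chaperone Calr fell from 488 ± 28.6 to 254 ± 17.3 (-0.94 ± 0.13, limma adjusted p 0.00019) and Hyou1 from 145 ± 17.6 to 72.4 ± 13.0 (-0.998 ± 0.17, 0.000785). Pdia3 (-0.59, limma adjusted p 0.0142) and Pdia4 (-0.55, 0.0201), relatives of P4hb named after their values were seen, were also lower. The isomerase Txndc5 was higher (0.84, limma adjusted p 0.0136), but that call ended without the second control library or the first or second day 4 library. Without the second day 4 library, 3 genes of the list passed in place of 6.

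The genes of oxygen sensing comprise the Egln enzymes, dioxygenases that hydroxylate prolines of HIF rather than of collagen, with the HIF subunits and their regulators. Egln3 reached the filter's 10 normalized counts only through the day 4 libraries, so its test is not used: it had 0, 2.76 and 2.18 in the control libraries, 4.48, 2.27 and 5.70 at day 2, 41.8, 39.9 and 38.9 at day 4 and 2.99, 2.34 and 2.84 at day 6. Of the 7 other tested genes among 13, 1 was higher and 0 lower at day 4 against the control. Their median log2 change was -0.17, and of all rows 6.99% were higher and 7.76% lower. Egln1 had 13.7, 10.1 and 14.3 normalized counts in the control libraries and 49.7, 35.3 and 45.7 at day 4 (1.70 ± 0.31, limma adjusted p 0.00146). It fell by 1.49 on the log2 scale from day 4 to day 6 (limma adjusted p 0.00861), as Plod2 and P4ha1 fell, but did not pass without the first day 6 library (-1.22, adjusted p 0.058). Egln2 (-0.90, limma adjusted p 0.0869) and Vhl, the ubiquitin ligase subunit that recognises hydroxylated HIF (-0.47, 0.137), did not pass at day 4. Egln2 did without the second control library (-1.22, limma adjusted p 0.041) or the third day 4 library (-1.19, 0.032).

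Among dioxygenases with other substrates, those that passed at day 4 were lower. Of 25 such genes 24 were in the table and 20 were tested. At day 4 against the control 0 were higher and 4 lower (all rows: 6.99% higher, 7.76% lower). Their median log2 change was 0.10. The histone demethylase Kdm4a had 31.4 ± 7.32 against 84.2 ± 12.2 normalized counts (SD, n = 3; -1.41, limma adjusted p 0.000374) and Kdm5c 88.8 ± 16.8 against 151 ± 28.1 (-0.76, 0.00755). Kdm4a was also the 1 gene of the list that passed at day 2 against the control (-0.98, limma adjusted p 0.0393). That call ended under 7 of 13 alternatives. At day 4 Kdm2b (-1.04, limma adjusted p 0.00936) and the DNA demethylase Tet2 (-0.56, 0.0298) were lower too. Without the second control library Kdm2b and Tet2 did not pass (limma adjusted p 0.056 and 0.146), which left 2 of the 4 calls, and the call of Tet2 also ended without the third control library or the first or the third day 4 library.

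Of 32 other textbook HIF targets, 4 of which (Egln1, Egln3, Ero1l and Kdm3a) also stand in the lists above, 25 were tested. The list was chosen with earlier results of these data known, so its counts are a description. At day 2 against the control 0 were higher and 0 lower (0.961% of all rows passed in either direction). At day 4 there were 12 higher and 2 lower (all rows: 6.99% higher, 7.76% lower). The median log2 change was 0.79 beside -0.01 for all rows. Egln3 and Bhlhe40 reached the filter only through the day 4 libraries, and without them 11 of 23 were higher and 2 lower, with a median of 0.74. The mitophagy gene Bnip3 had 9.58, 8.20 and 11.0 normalized counts in the control libraries and 91.9, 92.7 and 62.6 at day 4 (2.96 ± 0.28, limma adjusted p 6.91e-06). Ddit4, a stress-induced inhibitor of mTORC1, had 12.9, 14.7 and 15.4 in the control and 101.7, 95.7 and 53.3 at day 4 (2.41 ± 0.28, limma adjusted p 3.14e-05). The third day 4 library was the lowest of its day for both, as it was for Plod2 and P4ha1. For Ldha, Pdk1, Slc2a1 and Ero1l, which also passed as higher at day 4, the same library was the highest of its day. The glycolytic enzymes Tpi1 and Pgk1 each had a log2 change of 1.3 (limma adjusted p 3.71e-05 and 3.77e-05). Ak4 (-0.66, limma adjusted p 0.0261) and Hk2 (-0.45, 0.0382), named after their values were seen, were the 2 that were lower.

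At day 6 against the control, 1 HIF target was higher and 7 were lower (all rows: 3.07% higher, 3.15% lower). Day 6 against day 4 gave 0 higher and 14 lower (13 of 23 without Egln3 and Bhlhe40), beside 2.64% and 2.94% of all rows. The gene that was higher at day 6, named after its value was seen, was Pdk1, an inhibitor of pyruvate dehydrogenase (0.67, limma adjusted p 0.00864). Beside these counts, Plod2 was 1.02 above the control on the log2 scale at day 6 and passed, and P4ha1 stood at -0.16 and did not.

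**Figure D4:**
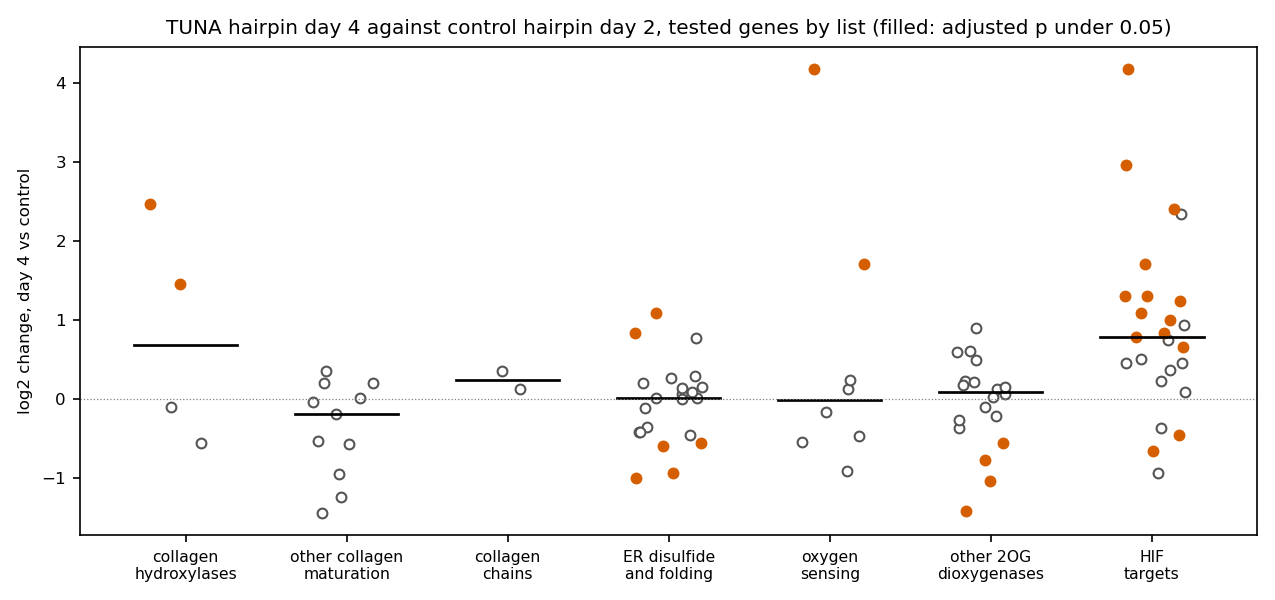
Log2 changes at day 4 against the control (vertical axis) of the tested genes of each list, with 1 point per gene, filled points for limma adjusted p under 0.05 and the list's median as a line. Filled points above 0 are Plod2 and P4ha1 on the left, Egln1 and Egln3, 2 folding genes and 12 HIF targets (Egln3, drawn in both lists, passed the filter only through day 4), and none of the 11 other collagen maturation genes is filled. A gene in 2 lists is drawn in both.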

How the data were processed

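Total RNA of 12 libraries (4 groups of 3) was measured. The authors deposited 1 table of log2 normalized counts per gene symbol; BWA, DESeq and the mouse build mm9 are named, per the submitters' processing notes, with no role or version. These deposited log2 values end at 0 and were raised back to normalized counts, with 0 kept as 0. Steps between low values gave the worth of 1 read per library, but only 43.8% to 56.7% of low values lay within 0.02 of a whole read, so whole reads were not recovered and how the fractions arose is not known. A count test was planned only for a table of raw counts and was therefore not used. As planned, limma 3.58.1 (R 4.3.3, variance trend) was fitted to log2(normalized count + 1), a pseudocount of 1, over all 12 libraries. The 8739 rows that reached 10 normalized counts in 3 or more libraries were kept. This leaves 8 residual and 9.48 prior degrees of freedom. Recovered totals were 3522126 to 5652522 reads per library. Replicates correlated at 0.919 to 0.959 across genes, and none agreed within sampling noise (mean chi-square per row 2.31 or more).

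The members and gene lists were chosen with earlier results of these data known. Named were all members, up to 4 tested genes per list with the smallest p at day 4 against the control, and the 3 rows most like each called member. Day 6 against day 2 and the ratios were added after the values were seen. The fit was also run on simulated whole reads with a single setting of the spread for all rows. The real values are not whole reads, so no conclusion is drawn from that run. No mm9 annotation was used: exon lengths and overlaps came from GENCODE M21 and promoters from RefSeq, both GRCm38. Alternatives were median of ratios and trimmed mean scaling, no filter, a pseudocount of 4, limma-voom on recovered reads, only the 2 groups, a replicate block and each library left out; their use on gene lists and ratios, and the list counts without genes that passed the filter through 1 group, were chosen after seeing the data. Figures used matplotlib 3.10.9 in Python 3.11.15.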

Additional observations from a re-analysis of the deposited data

Results flagged for a closer look

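Both members that changed differed between days under the same hairpin, by the limma test of the difference itself. Plod2 was higher at day 4 than at day 2 by a log2 change of 1.65 (limma adjusted p 7.86e-05) and changed by -1.45 from day 4 to day 6 (adjusted p 0.000254). P4ha1 was higher at day 4 than at day 2 by 1.28 (limma adjusted p 0.000555) and changed by -1.62 from day 4 to day 6 (adjusted p 6.25e-05). In each of these comparisons the 3 libraries of one day lay on one side of the 3 of the other. This held for 14.2% of all tested rows for day 4 above day 2 and 11.8% for day 6 below day 4. With 3 libraries per group, single libraries were not screened as outliers.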

How the results depend on the processing

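Of 260 alternative values for the 20 changes of the tested members, 258 kept their side of the threshold, 2 newly passed, and 0 lost a call or reversed a called direction. The 2 were Plod2 at day 2 without control replicate 1 (log2 change 0.98, limma adjusted p 0.0497), which made the number of members called at day 2 range from 0 to 1 with 1 library left out, and P4hb at day 4 without day 4 replicate 3 (-0.74, adjusted p 0.020). With each library left out in turn, Plod2 at day 4 against the control ranged from 2.33 to 2.63 and P4ha1 from 1.36 to 1.58. The number of all rows called moved more. It was 84 at day 2 and 18 to 45 with a library left out (52 without a filter), 1289 at day 4 against the control and 818 to 1287 (818 without day 4 replicate 2), and 543 at day 6 and 298 to 556 (298 without day 6 replicate 1). Day 4 against day 2 gave 669 and 337 to 739 (337 without day 2 replicate 3), and day 6 against day 4 gave 488 and 232 to 455 (232 without day 6 replicate 1; 197 with only the 2 groups).

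Same-numbered libraries deviated from their group means with correlations of -0.277 to 0.328. Against the control they were 0.024 or less. Between days all 3 were above 0, at 0.101, 0.033 and 0.130 for days 2 and 4 and at 0.053, 0.060 and 0.328 for days 4 and 6. These values do not settle whether the numbers are pairs, and the main fit does not take them as pairs. With the replicate block the members called stayed at 0, 2 and 1 against the control at days 2, 4 and 6 and at 2 and 2 between days, and all rows called were 76, 1219 and 507 for days 2, 4 and 6 against the control, 584 between days 2 and 4 and 414 between days 4 and 6.

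With 3 libraries per group and levels under 20 normalized counts, changes of Plod1, Plod3, P4ha2 and Loxl2 were poorly resolved, and Lox gave no value.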
